A study of Caenorhabditis elegans with 2 samples.

Results

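The ceh genes of Caenorhabditis elegans are homeobox genes named by number, and they are described here by where peaks of NHR-237 fell among them. NHR-237 is a nuclear hormone receptor, mapped here by ChIP-seq in embryos. Members were the nuclear protein-coding genes of the WBcel235 annotation whose symbol is ceh- followed by a number, with ceh-39 left out. The rule found 62 genes among 19973 protein-coding genes, and it used no measured value. RefSeq product names of all 62 mention a homeobox, a homeodomain or a one cut domain. By chromosome, 17 members lay on X, 13 on II, 12 on V, 8 on I, 8 on III and 4 on IV. X held 27.4% of the members and 13.7% of all protein-coding genes.

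Worms of strain OP228, genotype unc-119(ed3) III with the integrated transgene wgIs228, supplied mixed-stage embryos of both sexes. The transgene encodes eGFP-tagged NHR-237, so the protein mapped is a tagged copy in an unc-119 mutant background. There was 1 group of 2 biological replicates and no untagged group was analysed here. The authors deposited a peak list for each replicate (10872 peaks for replicate 1 and 30000 for replicate 2), a list called on both together, named the pooled list here (30000 peaks), and a shorter IDR list. IDR, the irreproducible discovery rate, is a measure by which peaks ranked alike in both replicates are kept. Here, as many pooled peaks of highest signal as the IDR list holds gave the same gene counts as that list. Both gave 1336 genes by promoter and 333 by gene body, as these are defined below. By these counts the IDR list could not be told apart from a cut on pooled signal. Read depth is unknown. The replicate and pooled lists were made to include background regions, so an entry in them is not by itself a binding site. Whole embryos were used, and occupancy in few cells cannot be told apart from weaker occupancy in many.

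Homeodomain proteins bind DNA through a helix-turn-helix fold and act mainly as transcription factors that assign regional and cell identity. In C. elegans they include Hox genes, the CUT class with its ONECUT subgroup, and the POU, sine oculis, LIM, TALE, paired-type and NK-like classes. Many members are expressed in few cells, and the neurons of the animal each express a particular set of homeobox genes. ONECUT proteins carry a cut domain beside the homeodomain, and ceh-38 is a broadly expressed member of that subgroup.

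Sequences beside the promoter peaks of highest pooled signal are shown first, from RefSeq's WBcel235 sequence (the same build as ce11), 5′ to 3′ on the strand of the ceh gene. The first is the whole stretch between malt-1 and ceh-38. It overlaps the upstream end of the only IDR peak at a member and stops before the summit of that peak. That summit lies in exon sequence, which is not shown. The other 3 are the bases within 100 bp of the pooled-list summits of highest signal that lay outside protein-coding genes in a ceh promoter, none of which reached the IDR list. Capitals mark matches, on either strand, to 6 motifs searched: the GA repeat GAGAGA, the promoter word GCGTCTC, the promoter word CGAGACC, the GATA-type word TGATAA, the homeodomain core TAATTA, or the nuclear receptor word AGGTCA.
ceh-38, chrII:6951301-6951525, plus strand, between malt-1 and ceh-38: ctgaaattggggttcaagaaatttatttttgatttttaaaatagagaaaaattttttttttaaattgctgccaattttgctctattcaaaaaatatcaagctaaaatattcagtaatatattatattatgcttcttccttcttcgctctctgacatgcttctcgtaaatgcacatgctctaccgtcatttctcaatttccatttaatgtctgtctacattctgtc
ceh-93, chrX:388806-389006, minus strand, around the pooled-list summit: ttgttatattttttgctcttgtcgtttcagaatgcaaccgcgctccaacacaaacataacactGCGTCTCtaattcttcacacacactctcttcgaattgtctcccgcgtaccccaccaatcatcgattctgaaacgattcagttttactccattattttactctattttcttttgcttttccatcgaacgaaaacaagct
ceh-89, chrX:14141612-14141812, plus strand, around the pooled-list summit: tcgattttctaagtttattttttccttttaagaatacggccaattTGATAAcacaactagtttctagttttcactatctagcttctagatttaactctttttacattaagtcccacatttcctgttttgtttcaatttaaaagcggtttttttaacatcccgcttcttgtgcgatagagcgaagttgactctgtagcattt
ceh-88, chrIV:17328865-17329065, plus strand, around the pooled-list summit: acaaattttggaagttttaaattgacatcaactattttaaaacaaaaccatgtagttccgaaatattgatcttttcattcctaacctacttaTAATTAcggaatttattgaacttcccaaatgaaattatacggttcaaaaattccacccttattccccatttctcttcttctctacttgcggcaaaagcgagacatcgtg
The 225 bases beside ceh-38 held none of the 6 motifs. The ceh-93 stretch held the word GCGTCTC, the ceh-89 stretch held the word TGATAA, while the ceh-88 stretch held the word TAATTA. A match is a description of these letters and not a site.

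Among the ceh genes, only ceh-38 had an IDR peak, both by promoter and by gene body. Promoter here means the window that starts 500 bp before a transcript's 5′ end and stops 200 bp after it, for coding transcripts. By this window 1 of 62 members, or 1.61% (95% Clopper-Pearson interval 0.0408 to 8.66), had an IDR summit in the promoter, against 6.69% of all protein-coding genes. The interval covers counting error only and includes the genome-wide figure. Within gene bodies, from gene start to gene end, 1 of 62 members, or 1.61%, had an IDR summit, against 1.67% of all genes. The same peak accounts for both counts.

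The ceh-38 peak (WBGene00000459, chromosome II, plus strand, 6951526 to 6955409) was a strong one, and it stood at the start of the gene. On build ce11 it ran from 6951390 to 6951785 with its summit at 6951588. The signal, a per-peak value written by the authors' caller and not scaled between lists, was 228.2 in the IDR and pooled lists, 116 in replicate 1 and 113 in replicate 2. These put it at rank 109 of the IDR list (its top 6.70%), rank 101 of 10872 in replicate 1 and rank 128 of 30000 in replicate 2. The replicate summits lay 22 bp upstream and 17 bp downstream of the IDR summit, so both replicates placed the peak alike. Over the 1336 genes with an IDR promoter summit, the median of the highest signal was 109.8.

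The summit at ceh-38 lay between alternative starts of the gene. Of 11 annotated 5′ ends, 1 was 62 bp upstream of the summit, and the summit lay in the exon that starts there. The other 10 were downstream, the farthest by 482 bp. The promoter is divergent: malt-1, which encodes a paracaspase, starts 225 bases from the first 5′ end of ceh-38 on the other strand. The summit was 288 bp upstream of the malt-1 5′ end and so also fell in the malt-1 promoter window. The peak list does not tell the genes apart, and with promoter summits restricted to those in no other gene's window, an alternative added after the data were seen, 0 of 62 ceh genes had an IDR summit (3.35% of all genes). A second, weaker pooled-list peak of signal 27.1 had its summit in an intron of ceh-38 and was matched in replicate 1 alone, and another of signal 25.1 lay in an exon toward the 3′ end, matched in replicate 2 alone.

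**Figure D1:**
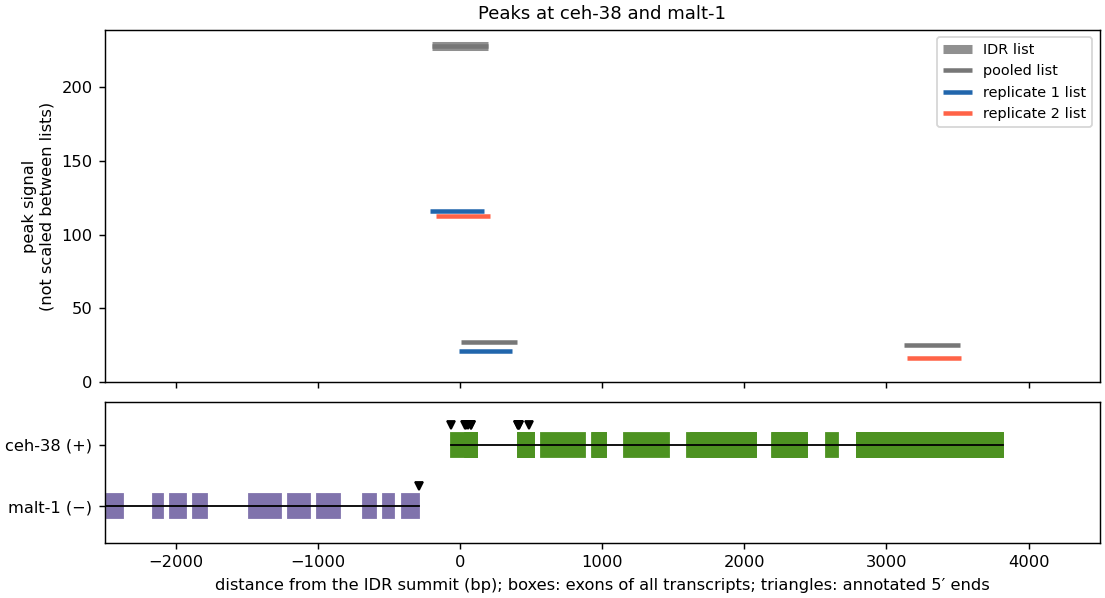
Peaks at ceh-38 and malt-1, by distance in bp from the IDR summit (x axis), with the peak signal of each list on the y axis; horizontal bars span the peaks, boxes are exons of all transcripts and triangles are annotated 5′ ends. The IDR and pooled peak of signal 228.2 and the replicate peaks of 116 and 113 coincide over the first exon of ceh-38, while the other peaks in view have signals of 27.1 or less.

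The other CUT-class members had no IDR peak. Of the 5 CUT members, ceh-38 included, 1 had a pooled promoter summit and 3 a pooled gene-body summit, where the shares of all genes were 33.1% and 39.5%. ceh-48, a pan-neuronal ONECUT gene, and ceh-41 had no summit of any list in promoter or gene body. ceh-21, a neighbour of ceh-41 on X, had a single pooled gene-body summit of signal 19.9, close to the lowest signal of that list (19.5), and one of signal 12.5 in replicate 2. At ceh-49, another ONECUT gene, the promoter was empty in every list, and the gene body held a summit of signal 44.1 in the pooled list, 18.4 in replicate 1 and 23.9 in replicate 2. The pooled ceh-49 summit lay in an exon, and only the replicate 2 summit was within 100 bp of it. ceh-44, the cut-like gene, is not among the symbols of the Ensembl annotation used. RefSeq models of the same assembly list it, and there it had no IDR summit, a promoter summit of signal 25.2 in the pooled list and 23.4 in replicate 2, and no summit in replicate 1. Its gene body held pooled summits of signal 32.3, 33.9 and 19.6 and 5 replicate 2 summits with signals from 11.0 to 19.3.

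Below the IDR list, promoter entries at ceh genes spread over the ranks of the pooled list. In the pooled list, 15 of 62 members, or 24.2% (14.2 to 36.7), had a promoter summit, against 33.1% of all genes. With the window widened to 1000 bp upstream, the count was 26 of 62, or 41.9%, against 43.5% of all genes, so the gap in pooled-list shares was nearly absent. In that wider window the ceh share stayed lower for an IDR summit (1.61% against 8.07%). It also stayed lower for a summit in the pooled list and in both replicate lists (11.3% against 19.9%). In the shorter window the counts were 10 of 62 in replicate 1 (16.1%, against 18.9% of all genes) and 12 of 62 in replicate 2 (19.4%, against 32.7%). The replicate 2 share, with an interval of 10.4 to 31.4, is the one share of these 3 whose interval leaves out that of all genes, and no test of the list was made. Among the 15 members the median of the highest pooled signal was 31.1, against 33.5 over the 6604 genes with such a summit. Of these members, 10 had a summit at rank 15000 or better, or 16.1% of the 62 (8.02 to 27.7), against 22.8% of all genes. At rank 5000 or better in the pooled list, 4 members remained, namely ceh-38, ceh-93, ceh-89 and ceh-88, or 6.45% (1.79 to 15.7), against 13.4% of all genes.

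**Figure D2:**
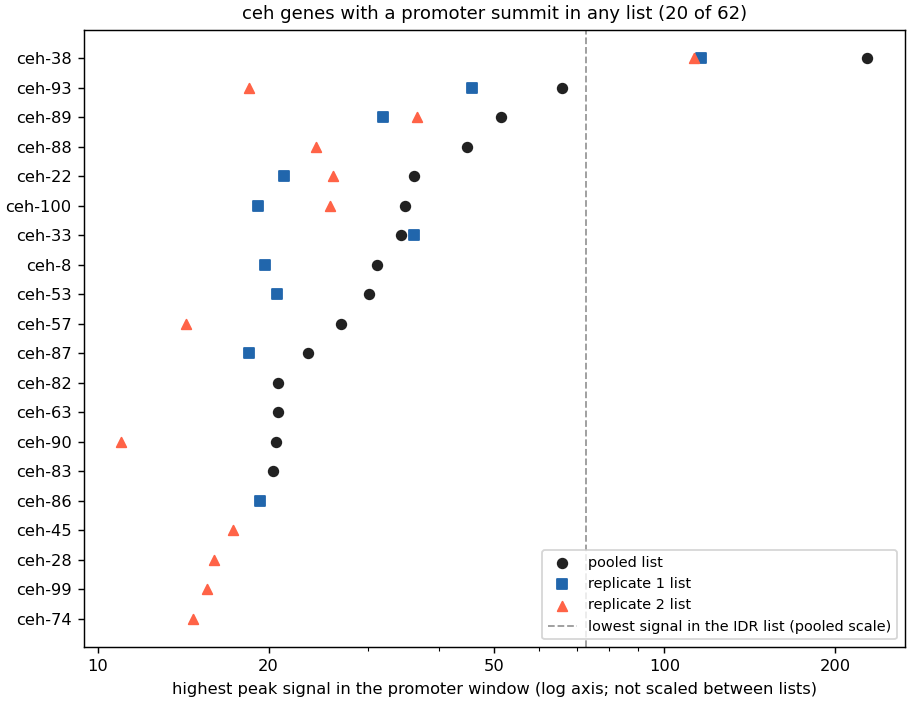
Highest peak signal in the promoter window (x axis, log scale, not scaled between lists) for the 20 of 62 ceh genes with a promoter summit in the pooled or a replicate list; circles are the pooled list, squares replicate 1 and triangles replicate 2, and a missing symbol means no summit. The pooled value of ceh-38 lies right of the dashed line, the lowest signal of the IDR list at 72.6, and that of ceh-93, at 65.9, lies just left of it.

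The member nearest to the IDR list from below was ceh-93 (RefSeq homeobox domain-containing protein, chromosome X). Its promoter peak, at 388708 to 389103, had a pooled signal of 65.9 and rank 1895, while the lowest IDR peak had a signal of 72.6. Replicate 1 gave it a signal of 45.8 at rank 1050 and replicate 2 a signal of 18.5 at rank 9246. The replicates thus ranked this peak far apart. Its pooled signal also lay below the lowest IDR signal. The part of the pooled signal and of the replicate ranks in its absence from the IDR list was not tested. Among as many replicate 1 peaks of highest signal as the IDR list holds, the ceh genes with a promoter summit were ceh-38 and ceh-93. They are 3.23% of members, against 6.39% of all genes. In the same number of replicate 2 peaks ceh-38 was the only one (1.61%, against 6.55% of all genes).

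A promoter summit in the pooled list and in both replicate lists was present at 5 of 62 members, or 8.06% (2.67 to 17.8), against 14.9% of all genes. These were ceh-22, ceh-38, ceh-89, ceh-93 and ceh-100. When the replicate summits also had to lie within 100 bp of a pooled summit, 4 of 62 were left (6.45%, interval 1.79 to 15.7), against 12.7% of all genes, and ceh-22 was the one lost. Counted by summit, 4 of the 19 pooled promoter summits at members were matched in both replicates, against 30% of all 6994 promoter summits. A further 4 were matched in neither, a share that was not counted over all genes. The replicate 1 list (10872 peaks) is shorter than the replicate 2 and pooled lists (30000 each), and matches were not corrected for list length.

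ceh-22 encodes an NK-2 type factor of pharyngeal muscle. Its 5 annotated 5′ ends spread the promoter windows over the gene, and they held pooled summits of signal 20.2, 36.1 and 25. The summits of 20.2 and 36.1 were matched in replicate 2 alone, at 26.0 and 21.3, and that of 25 in replicate 1 alone, at 21.3. No single pooled summit at ceh-22 was therefore found in both replicates.

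ceh-89, which RefSeq calls a homeodomain-only protein, had a pair of pooled summits on X. The summit 234 bp upstream of its 5′ end had a pooled signal of 51.4 and was matched in replicate 2 at 36.6, with no replicate 1 summit within 100 bp. The summit 9 bp upstream had a pooled signal of 41.8, a replicate 1 signal of 31.8 and a replicate 2 signal of 12. At ceh-88 on chromosome IV the pooled signal was 44.9 and the replicate 2 signal 24.3, with no replicate 1 promoter summit. At ceh-100, the longest member at 21503 bp, the signals were 34.8 in the pooled list, 19.2 in replicate 1 and 25.7 in replicate 2.

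The remaining promoter entries were weaker. ceh-33, a sine oculis-class gene, had a pooled signal of 34.3 and a replicate 1 signal of 36.1, and that summit lay in an exon of the upstream gene C10G8.8, with no match in replicate 2. ceh-8, of the paired type, had 31.1 in the pooled list and 19.7 in replicate 1, and ceh-53 had 30.1 and 20.7. ceh-57 had 26.9 in the pooled list and 14.3 in replicate 2, and ceh-90 had 20.6 and 11.0. At ceh-87, ceh-82, ceh-63 and ceh-83 the pooled signals ran from 20.4 to 23.5 and no replicate summit lay within 100 bp. Of these 9 members, ceh-33, ceh-8, ceh-53 and ceh-57 lay above the median signal of the pooled list, 26.8. A further 5 members had a promoter summit in 1 replicate list and none in the pooled list: ceh-86 in replicate 1, with a signal of 19.3, and ceh-28, ceh-45, ceh-74 and ceh-99 in replicate 2, with signals from 14.7 to 17.3.

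By class, the counts below can be read beside the shares of all genes, 33.1% with a pooled promoter summit and 39.5% with a pooled gene-body summit. ceh-13, the labial-type Hox gene, had no promoter summit in any list and no pooled summit at all, and its gene body held replicate 2 summits of at most 13.4. Of the sine oculis genes, ceh-32 and ceh-34, which act in anterior and pharyngeal development, had no promoter summit, and their highest pooled gene-body signals were 28 and 22.2. The 2 POU members, ceh-6 and ceh-18, had gene-body signals of 30 and 33.5 in the pooled list and no promoter summit. The 3 TALE members, which include the Hox cofactor gene ceh-20, all had a pooled gene-body summit and none in the promoter. Of 15 NK-like members, a class that here takes in engrailed (ceh-16) and Distal-less (ceh-43) relatives, 1 had a pooled promoter summit and 5 a gene-body summit. At ceh-16, which acts in seam cells, the gene-body signal was 33.4 in the pooled list and 30.4 in replicate 1, with no summit in replicate 2. At ceh-43 it was 26.4 in the pooled list and 22.4 in replicate 2, with none in replicate 1. For the TALE members ceh-20, ceh-40 and ceh-60 the pooled values were 20.4, 30.8 and 20.6, each with a replicate 2 summit and no replicate 1 summit in the gene. Of 8 paired-type members the counts were 2 and 3. The other 23 members, for which no class was set, had 10 pooled promoter summit genes and 12 with gene-body summits. Classes were assigned from textbook knowledge, and some hold 1 to 3 genes.

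Gene bodies of members carried weak entries about as densely as those of other genes. A pooled summit lay in the body of 31 of 62 members, or 50% (37 to 63), against 39.5% of all genes. In replicate 1 the count was 15 of 62 (24.2%, against 18.1%) and in replicate 2 it was 31 of 62 (50%, against 39.4%). The ceh genes were longer, with a median of 2735 bp against 2027 bp. Per Mb of gene body there were 262 pooled summits at members and 259 over all genes, 92.1 and 84.0 in replicate 1, and 267 and 259 in replicate 2. Of the 57 pooled summits in ceh gene bodies, 38 were in introns and 19 in exons. Exons of any overlapping protein-coding gene counted here, and a ceh-60 summit was placed in an exon of ets-4. The median of the highest pooled gene-body signal was 27.6 at members and 28.6 over all genes with one. A gene-body summit in the pooled list and in both replicate lists was present at 10 of 62 members, or 16.1% (8.02 to 27.7), against 13.7% of all genes. Pooled summits matched within 100 bp in both replicates were present in the bodies of ceh-8, ceh-18 and ceh-38, or 4.84% of members (1.01 to 13.5), against 7.44% of all genes. The one at ceh-8 had signals of 51.3 in the pooled list, 19.3 in replicate 1 and 30.1 in replicate 2, at the 3′ edge of the gene. At rank 5000 or better in the pooled list, 3 members had a gene-body summit, ceh-38, ceh-8 and ceh-49, or 4.84%, against 6.62% of all genes. At ceh-18, a POU gene that acts in the gonadal sheath, the summit matched in both replicates had signals of 33.5 in the pooled list, 23.2 in replicate 1 and 11.9 in replicate 2. In all, 19 of 62 members, or 30.6%, had no summit of any list in promoter or gene body, against 37.6% of all genes.

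Few members had an IDR summit at short range. The median distance from a 5′ end to the nearest IDR summit was 25444 bp for ceh genes (quartiles 13385 and 51705) and 22768 bp for all genes (7643 and 53629). Within 5000 bp lay an IDR summit for 3 of 62 members, or 4.84%, against 19.1% of all genes, and within 10000 bp for 13, or 21%, against 29.7%. The 3 members were ceh-38 at 31 bp, ceh-5 at 1678 bp and ceh-21 at 3622 bp. The summit near ceh-5, of signal 122, lay in an exon of eat-16. The farthest members were ceh-81, ceh-82 and ceh-83, neighbours on chromosome II, at 409777, 411606 and 415817 bp.

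**Figure D3:**
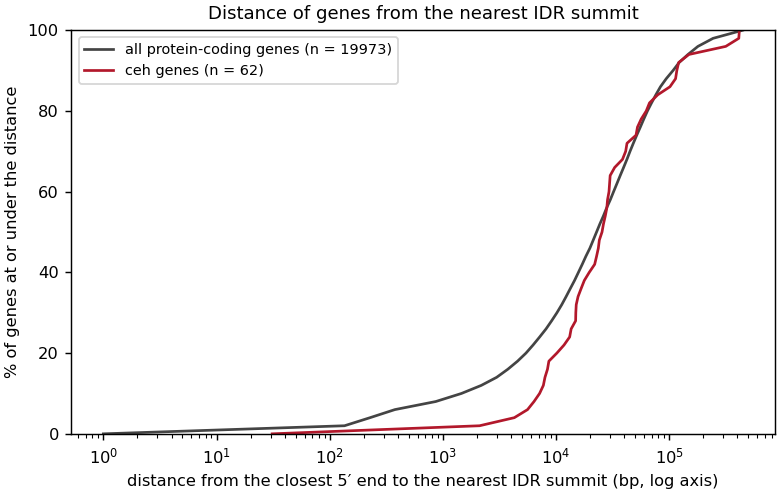
Share of genes (y axis, in percent) whose closest 5′ end lies at or under a given distance in bp (x axis, log scale) from the nearest IDR summit, for the 62 ceh genes and all 19973 protein-coding genes. The ceh curve lies below that of all genes at 5000 and 10000 bp (4.84% against 19.1% and 21% against 29.7%). The ceh curve stays below up to the 56th percentile of distance (28067 bp for ceh genes and 27968 bp for all), and beyond it the curves cross several times.

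Promoters of members also differed in setting. The median gap from the 5′ end to the next protein-coding gene upstream was 1788 bp for ceh genes and 936 bp for all genes. Over all genes, 9.67% of the 10376 with a gap under 1000 bp had an IDR promoter summit, and 3.47% of the 9592 with a gap of 1000 bp or more. The ceh counts were 1 of 22 and 0 of 40 in these groups. A divergent neighbour within 1000 bp, as at ceh-38, was present at 5 members (8.06%) and at 17.2% of all genes. Members on X had an IDR promoter summit at 0 of 17, where the share of all X genes was 4.03%, and autosomal members at 1 of 45 (2.22%), where the autosomal share was 7.11%. The part of gene spacing and chromosome in the counts was not tested.

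The same 6 motifs were counted in whole promoters. In windows of 701 bp placed like the promoter window at the most upstream 5′ end, with both strands searched, GAGAGA was in 45.2% of ceh promoters, 36.8% of all promoters and 46.0% of those with an IDR summit. GCGTCTC was in 11.3%, 7.70% and 17.5%, and CGAGACC in 8.06%, 7.02% and 16.6%. The 7 members with GCGTCTC were ceh-6, ceh-8, ceh-12, ceh-60, ceh-83, ceh-93 and ceh-100. None of them had an IDR peak, as ceh-38 was the only member with one. Over all genes, 234 of the 1537 with the word had an IDR promoter summit. TGATAA was in 62.9%, 53.8% and 45.3%, TAATTA in 25.8%, 32% and 35.3%, and AGGTCA, the core of many nuclear receptor sites, in 17.7%, 16.8% and 10.4%. The ceh-38 window held GAGAGA, as well as TGATAA, as well as TAATTA, and lacked the other 3. Median GC content was 36.3% for ceh promoters, 35.0% for all and 36.2% for those with an IDR summit.

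Other transcription factor families were set beside the ceh genes. Of 38 other homeobox genes, a list that includes the Hox genes lin-39, mab-5 and egl-5, 0 had an IDR summit in the promoter (upper limit of the interval 9.25%) and 0 in the gene body. Nuclear hormone receptor genes named nhr- and a number had an IDR promoter summit at 13 of 269, or 4.83% (2.60 to 8.12), and basic helix-loop-helix genes named hlh- and a number at 1 of 25, or 4% (0.101 to 20.4), namely hlh-11. Their intervals overlap that of the ceh genes, and no test between families was made. In the pooled list the other homeobox genes had a promoter summit at 44.7% (28.6 to 61.7), against 24.2% (14.2 to 36.7) of ceh genes. The 2 intervals overlap, which is not a test of the difference. The shares were 10.5% and 16.1% in replicate 1, and 47.4% and 19.4% in replicate 2. By both replicates together with the pooled list they were 7.89% and 8.06%.

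**Figure D4:**
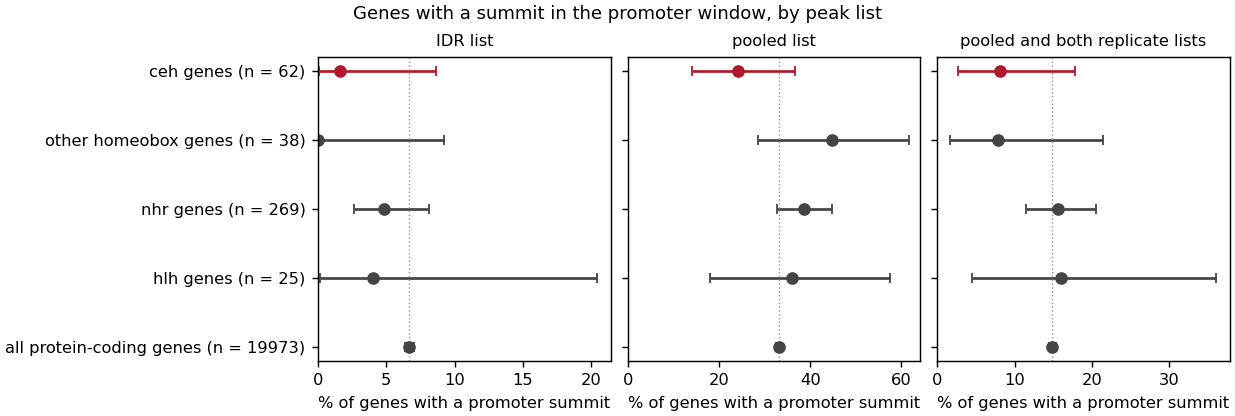
Percent of genes with a promoter summit (x axis) in the IDR list, in the pooled list, and in the pooled and both replicate lists, for ceh genes, other homeobox genes, nhr genes, hlh genes and all protein-coding genes; points are shares, bars 95% Clopper-Pearson intervals and dotted lines the share of all genes. The ceh share is 1.61%, 24.2% and 8.06% in the 3 panels, against 6.69%, 33.1% and 14.9% of all genes.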

How the data were processed

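Peak lists of eGFP-tagged NHR-237 ChIP-seq on build ce11 were used as deposited by the authors, and the peak signal (narrowPeak column 7) was taken as their caller wrote it. The −log10 q-value (column 9) was deposited in the IDR and replicate lists. The authors' pooled list holds slightly negative entries there, so column 9 was treated as a score. Column 9 was not used to rank or filter, and all ranks were by the peak signal. Per the deposited text listings, each of these lists derives from the alignments of its samples and a further input. Names of aligner, caller and thresholds were not given in the sources used here. Library fragments were selected at 150 to 350 bp, per the labels. Lists were not scaled to each other.

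Summits were column 2 plus column 10, and were the peak midpoint for 94.2% of IDR peaks. Ensembl release 115 models and RefSeq sequence of WBcel235 were used. Promoter sequence was cut from that genome at Ensembl 5′ ends. A summit could count for several genes. Shares carry 95% Clopper-Pearson intervals, and no test of the gene list was made. Members and lists were chosen with earlier results of these data known. Genes were named by a rule: every member with an IDR summit, the 12 of highest pooled promoter signal, CUT and sine oculis members and ceh-13; others were named after their values were seen. Planted summits were recovered at 200 of 200 genes for promoters and for gene bodies. Tables were handled with pandas 2.3.3 in Python 3.11.15, intervals computed with scipy 1.17.1 on numpy 2.4.6, and plots drawn with matplotlib 3.10.9.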

Additional observations from a re-analysis of the deposited data

How the results depend on the processing

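Of 31 alternative counts, 25 stayed within 1.5 times the reported one. Several of these had little room to move. The peak midpoint, used in some, was the summit for 94.2% of IDR peaks and 99.7% of pooled peaks, and the reported IDR counts rest on the ceh-38 peak alone. The count of ceh genes with an IDR promoter summit was reported as 1 (1.61%, against 6.69% of all genes). It was 2 with each summit given to the nearest 5′ end within 2000 bp (ceh-5 joined), or 3.23% against 6.62%. With summits in no other gene's promoter it was 0, against 3.35% of all genes. In the top peaks of a single replicate it was 2 for replicate 1 (3.23% against 6.39%) and 1 for replicate 2 (1.61% against 6.55%). The gene-body count of 1 held under each alternative run, while the share of all genes ran from 0.706% to 4.99%. The pooled promoter count of 15 was 26 with a window of 1000 bp upstream to 200 bp downstream (41.9% of ceh genes, 43.5% of all). Among pooled peaks of rank 5000 or better it was 4 (6.45% of ceh genes, 13.4% of all). The count with both replicates, reported as 5, was 3 among those peaks (4.84% of ceh genes, 12% of all). The cause was not tested. RefSeq models, and summits in no other gene's promoter, were chosen after the data were seen. No paired analysis was possible because there was a single group.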
